A study of Mus musculus with 20 samples.

Results

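Signalling by interleukin-1 and its relatives was described through 10 genes, taken by name from the 47729 genes listed in 20 RNA-seq count tables of cultured mouse colon fibroblasts. The 10 genes encode the ligands IL-1 alpha (Il1a), IL-33 (Il33) and IL-18 (Il18), the receptor chains Il1r1, Il1rl1 and Il1rap, and the intracellular proteins Myd88, Irak1, Irak2 and Irak3. All of them were among the 14820 genes with enough counts to be tested. The study is about rectal cancer and how fibroblasts bear on its response to treatment before surgery.

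Fibroblasts came from the colon of C57BL6/J mice and were grown in 2D in Advanced DMEM F12 with 10% serum. In 4 of the 5 groups they were stimulated for 24 h with medium conditioned by organoids. The groups were irradiated APTKA medium, APTKA medium, irradiated APTK medium, APTK medium and untreated (also titled wild-type), with 4 libraries each. APTKA and APTK are names of organoid lines that the labels do not expand, and irradiation was 5 fractions of 2 Gy. The labels do not say whether organoids or fibroblasts were irradiated, and give no age of the mice. Irradiated fibroblasts without conditioned medium, and organoid medium that no organoid had conditioned, were not analysed here, so organoid products and the medium itself cannot be told apart. Whether the 4 libraries of a group came from separate cultures or mice is not stated in the labels. The p-values therefore reflect the spread between libraries only, and that spread may be technical.

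IL-1 alpha and IL-33 are alarmins: they are held inside cells, act partly in the nucleus and signal to neighbours when released. IL-1 binds IL-1 receptor type 1 (Il1r1), IL-33 binds ST2 (Il1rl1), and both complexes take up the same accessory chain (Il1rap) before Myd88 and the IRAK kinases carry the signal to NF-kappaB. In the gut, stromal cells are a known source of IL-33, and fibroblasts answer IL-1 with chemokines, cytokines and matrix proteases. ST2 exists in a membrane form, which signals, and in a secreted form, which binds IL-33 as a decoy, and counts per gene do not separate them.

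Library totals lay between 17.3 and 31.6 M counts, and 2 libraries of irradiated APTK medium were the shallowest (19.6 and 17.3 M). The fibroblast markers were abundant in every library, and 10 of them summed to 3.73e+04 to 4.76e+04 CPM (counts scaled to library size with TMM factors) in irradiated APTKA, 3.67e+04 to 4.05e+04 in APTKA, 4.93e+04 to 5.83e+04 in irradiated APTK, 5.54e+04 to 6.14e+04 in APTK and 6.37e+04 to 7.17e+04 CPM in untreated libraries. Of 6 mast cell genes, a cell type known for Il1rl1, Cpa3, Fcer1a and Mcpt4 were at 0 in all 20 libraries, and the list summed to at most 0.233 CPM. Of 5 lymphocyte genes, the T cell gene Cd3e was also at 0 throughout, but the others were not. Gata3 and Foxp3 passed the filter, at up to 0.774 and 0.715 CPM, and Cd4 and Cd79a reached at most 0.549 and 0.297 CPM. The lymphocyte list summed to between 0.433 CPM (lowest, in irradiated APTKA) and 1.5 CPM (highest, in APTK). Of 9 epithelial genes, Krt18, Krt19 and Krt20 passed the filter, with Krt19 the highest at up to 1.507 CPM, and Epcam reached at most 0.105 CPM. The epithelial list summed to 1.77 to 2.62 CPM in irradiated APTKA, 1.38 to 2.59 in APTKA, 1.44 to 2.41 in irradiated APTK, 1.36 to 2.29 in APTK and 1.29 to 1.79 CPM in untreated libraries. Of 4 endothelial genes Tek, Pecam1 and Kdr passed the filter, at up to 2.37, 0.803 and 0.640 CPM, and Cdh5 reached at most 0.0400 CPM. The endothelial list summed to 1.59 to 2.11 CPM in irradiated APTKA, 1.68 to 2.00 in APTKA, 0.807 to 1.32 in irradiated APTK, 0.691 to 1.15 in APTK and 1.98 to 3.00 CPM in untreated libraries. The summed level of 6 leukocyte and macrophage genes was 4.81 to 5.85 CPM in irradiated APTKA, 4.59 to 5.58 in APTKA and 7.28 to 10.0 in irradiated APTK. It was 6.80 to 8.22 CPM in APTK and 8.93 to 9.41 CPM in untreated libraries. Lyz2, Cd68 and Csf1r passed the filter and reached 6.91, 3.35 and 2.07 CPM, while Ptprc reached at most 0.195 CPM. The part of these marker differences in the results was not tested. In such bulk libraries, fewer cells of a type and less RNA per cell cannot be told apart.

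The receptor gene for IL-33 moved in opposite directions with the 2 media. Il1rl1 rose 4.66-fold with APTKA medium and fell 4.19-fold with APTK medium, each against untreated cells, which puts a 19.5-fold difference between the media. Il33 itself fell with both, 8.98-fold with APTKA medium and 3.50-fold with APTK medium. Il1a appeared at a low level with APTKA medium, Il1r1 fell with APTKA medium and rose with APTK medium, and the adaptor and kinase genes differed by less than 1.5-fold. Adding irradiation to either medium changed no member past the threshold.

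Against untreated cells, 2 members were higher with APTKA medium (Il1a and Il1rl1) and 5 lower (Il33, Il18, Il1r1, Il1rap and Irak1), while 3 did not pass the 5% false discovery rate of edgeR's quasi-likelihood test over all genes. In that comparison 61.4% of all tested genes passed, 31.5% higher and 29.9% lower. The median log2 fold change was -0.26 over the members and 0.0031 over all genes. With APTK medium 2 members were higher (Il1r1 and Irak3) and 3 lower (Il33, Il1rl1 and Il1rap), where 43.4% of all genes passed, 20.9% higher and 22.5% lower (median -0.03 over the members, 0.0028 over all genes). Irradiated APTKA medium gave the same 2 higher and 5 lower members as APTKA medium, with 61.0% of all genes passing, 31.0% higher and 30.0% lower (median -0.22 over the members, -0.0056 over all genes). With irradiated APTK medium Il1r1 and Irak3 were higher and Il33, Il1rl1, Il1rap and Myd88 lower, with 43.6% of all genes passing, 21.5% higher and 22.2% lower (median -0.02 over the members, 0.01 over all genes). Of the 10 members 7, 5, 7 and 6 were thus called in these 4 comparisons. That share was near that of all genes, except with irradiated APTK medium, where it was higher. These comparisons share the untreated libraries.

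**Figure D1:**
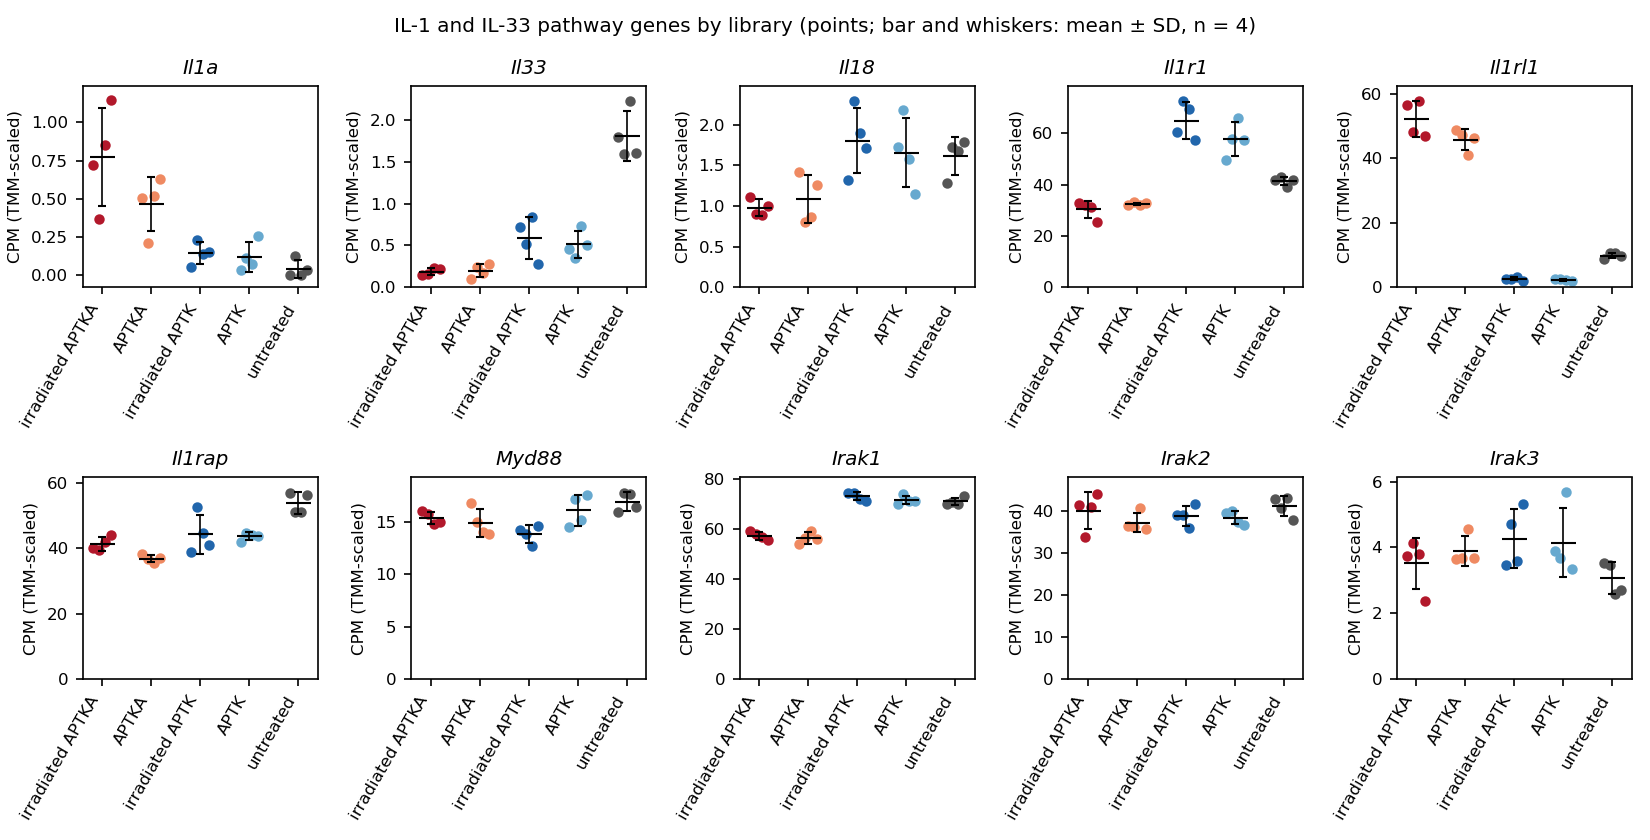
TMM-scaled CPM (vertical axis) of each of the 10 genes by group (horizontal axis), with a point per library and the mean ± SD over n = 4. Il1rl1 lies at 41.1 to 57.6 CPM in the 8 APTKA libraries, at 1.99 to 3.19 CPM in the 8 APTK libraries and at 8.72 to 10.5 CPM in untreated cells, while Irak2 overlaps between all groups.

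Il1a, on the minus strand of chromosome 2 (129299610 to 129309972, mm10), encodes a precursor that is active without cleavage and is the ligand of Il1r1. It had 20, 12, 22 and 32 counts in the 4 libraries of irradiated APTKA medium and 15, 6, 12 and 16 with APTKA medium. It had 1, 4, 4 and 4 counts with irradiated APTK medium, 1, 3, 2 and 6 with APTK medium and 0, 3, 0 and 1 in untreated libraries. Every APTKA library, irradiated or not, held more Il1a counts than any untreated library, while APTK and untreated libraries overlapped. The scaled counts of APTKA medium over untreated cells gave a ratio of 11.5 (95% exact counting interval 4.23 to 44.0), and those of irradiated APTKA medium a ratio of 19.0 (7.16 to 71.3). In the fit the log2 fold changes were 3.38 ± 0.677 (SE, edgeR adjusted p = 9.27e-05) for APTKA medium and 4.10 ± 0.608 (adjusted p = 1.44e-06) for irradiated APTKA medium. Left-out libraries moved the APTKA value between 3.00 and 4.71 and the irradiated APTKA value between 3.72 and 5.43. The highest in each case came without untreated replicate 2, which holds 3 of the 4 untreated counts. With APTK medium the ratio was 2.93 (0.887 to 12.4) and the test did not pass (adjusted p = 0.205). With irradiated APTK medium it was 3.64 (1.13 to 15.3), also not past the threshold (adjusted p = 0.116), though it passed without untreated replicate 2 (adjusted p = 0.0326). Between the media the ratio was 3.94 (2.07 to 8.15) for APTKA over APTK (adjusted p = 0.00273), where 1 APTKA library overlapped the APTK range, and 5.22 (2.90 to 10.2) with irradiation, without overlap. Krt19, of the epithelial list, was also called higher with APTKA medium than in untreated cells (0.86 ± 0.285, adjusted p = 0.0110, with overlap), and its part in the Il1a result was not tested. The level of Il1a stayed small, at 0.466 ± 0.179 CPM with APTKA medium and 0.0417 ± 0.0611 CPM in untreated cells (SD, n = 4 each). Of its exon bases 11.2% lie opposite the transcript Gm14023, and without a stated strand setting reads there cannot be assigned.

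The 250 bases before the RefSeq start of Il1a, at chr2:129309973-129310222 of GRCm38.p6 on the minus strand, are shown because they hold the only AP-1 match (TGANTCA, in capitals, bases -12 to -6 from the start) among the windows of the 10 genes.
Il1a: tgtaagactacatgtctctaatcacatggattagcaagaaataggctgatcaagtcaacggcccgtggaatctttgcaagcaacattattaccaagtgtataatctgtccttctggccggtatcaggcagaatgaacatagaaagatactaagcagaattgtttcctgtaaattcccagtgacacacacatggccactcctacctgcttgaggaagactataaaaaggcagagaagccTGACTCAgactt

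Il33 lies on the plus strand of chromosome 19 (29925114 to 29960718) and encodes the nuclear alarmin that binds ST2. Its counts were 4, 5, 6 and 6 in irradiated APTKA, 3, 7, 4 and 7 in APTKA, 13, 9, 24 and 7 in irradiated APTK, 12, 9, 20 and 12 in APTK and 45, 37, 57 and 43 in untreated libraries. All 16 libraries of conditioned media lay below the 4 untreated ones. In CPM the means were 0.187 ± 0.0438 in irradiated APTKA, 0.199 ± 0.0777 in APTKA, 0.586 ± 0.248 in irradiated APTK, 0.512 ± 0.162 in APTK and 1.81 ± 0.295 in untreated libraries (SD, n = 4 each). The log2 fold change against untreated cells was -3.17 ± 0.309 (SE, edgeR adjusted p = 9.33e-10) for APTKA medium and -1.81 ± 0.260 (adjusted p = 2.40e-06) for APTK medium. Between APTKA and APTK medium it was -1.36 ± 0.381 (adjusted p = 0.00292), and the libraries of the 2 groups did not overlap. The irradiated media differed by -1.65 ± 0.380 (adjusted p = 4.85e-04). With 21 counts over the 4 APTKA libraries, the level under that medium rests on few reads.

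RefSeq gives Il33 more than 1 start, and the 250 bases before each, at chr19:29924863-29925112 and chr19:29945540-29945789 of GRCm38.p6 (plus strand), are shown because the gene fell with every medium. Neither holds a match to the 4 motifs searched, so no letters are in capitals.
Il33 first start: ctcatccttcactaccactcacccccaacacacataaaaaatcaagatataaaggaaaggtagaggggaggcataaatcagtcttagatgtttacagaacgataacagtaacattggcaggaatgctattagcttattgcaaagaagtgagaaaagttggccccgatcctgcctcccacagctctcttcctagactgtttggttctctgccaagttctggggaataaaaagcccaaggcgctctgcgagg
Il33 second start: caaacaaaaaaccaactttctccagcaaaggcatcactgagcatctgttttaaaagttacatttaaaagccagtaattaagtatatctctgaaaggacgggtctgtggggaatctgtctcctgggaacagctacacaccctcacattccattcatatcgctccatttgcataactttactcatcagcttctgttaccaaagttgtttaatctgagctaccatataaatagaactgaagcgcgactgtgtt

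Il18, the ligand of a related receptor that also signals through Myd88, lies on the plus strand of chromosome 9 (50554827 to 50581840). Its mean was 0.977 ± 0.106 CPM in irradiated APTKA, 1.09 ± 0.294 in APTKA, 1.81 ± 0.404 in irradiated APTK, 1.66 ± 0.427 in APTK and 1.62 ± 0.231 CPM in untreated libraries (SD, n = 4 each). It fell with irradiated APTKA medium (log2 -0.73 ± 0.217 SE, edgeR adjusted p = 0.00498), where the libraries did not overlap the untreated ones. With APTKA medium the log2 fold change was -0.57 ± 0.215 (adjusted p = 0.0247) and the libraries overlapped. That call was lost without any 1 of 5 libraries, namely untreated replicates 2, 3 and 4 (adjusted p = 0.0527, 0.0501 and 0.0664) and APTKA replicates 2 and 3 (0.101 and 0.0745). With APTK medium Il18 stood at 0.04 ± 0.203 (adjusted p = 0.900). APTKA over APTK medium gave -0.60 ± 0.213 (adjusted p = 0.0156), again with overlap, and this call was lost without APTKA replicate 2 or 3 or APTK replicate 2 (adjusted p = 0.0711, 0.0518 and 0.0925). The irradiated media differed by -0.88 ± 0.2175 (adjusted p = 9.49e-04), without overlap. That call held with any library left out (highest adjusted p = 0.00579). Of the leukocyte and macrophage list, Lyz2 (-1.54 ± 0.172) and Csf1r (-0.69 ± 0.241) were also called lower with APTKA medium than in untreated cells, and Cd68 higher (0.60). Between APTKA and APTK medium Lyz2 (-1.04) and Csf1r (-0.80) were lower and Cd68 did not pass. Lyz2 was also lower with APTK medium than in untreated cells (-0.49 ± 0.158). The part of these genes in the Il18 result was not tested.

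Il1rl1 and Il1r1 are neighbours on the plus strand of chromosome 1, at 40429570 to 40465415 and 40225080 to 40317257. Il1rl1 stood at 56.4, 48.2, 57.6 and 46.8 CPM with irradiated APTKA medium and at 48.8, 47.3, 41.1 and 46.2 CPM with APTKA medium. It stood at 2.64, 2.70, 3.19 and 1.99 CPM with irradiated APTK medium, at 2.496, 2.64, 2.23 and 1.99 CPM with APTK medium and at 8.72, 10.5, 10.5 and 9.71 CPM in untreated libraries. The 3 levels (both APTKA media, untreated, both APTK media) were separated in every library, and within each medium the irradiated and plain libraries overlapped. The log2 fold change was 2.22 ± 0.0928 (SE, edgeR adjusted p = 2.53e-17) for APTKA medium over untreated cells and -2.07 ± 0.123 (adjusted p = 3.04e-13) for APTK medium over untreated cells. Between APTKA and APTK medium it was 4.29 ± 0.112 (adjusted p = 1.41e-21), the 18th highest of 14820 genes, and between the irradiated media 4.31 ± 0.113, the 12th highest. Leaving out any library kept the first difference between 4.22 and 4.35. Tek, of the endothelial list, was higher with APTKA than with APTK medium (2.05 ± 0.287, adjusted p = 5.74e-07) and lower with APTK medium than in untreated cells (-2.74 ± 0.269, adjusted p = 4.12e-09), but also lower with APTKA medium than in untreated cells (-0.69 ± 0.207, adjusted p = 0.00504). It stood at 1.23 ± 0.225 CPM in APTKA, 0.296 ± 0.118 in APTK and 1.99 ± 0.483 CPM in untreated libraries (SD, n = 4 each). Kdr was also higher with APTKA than with APTK medium (1.37 ± 0.404, adjusted p = 0.00443). It was lower with APTK medium than in untreated cells (-1.80 ± 0.385, adjusted p = 3.97e-04). Pecam1 passed in neither comparison (-0.54 ± 0.333 and 0.64 ± 0.342), but was higher with irradiated APTK medium than in untreated cells (0.90 ± 0.339, adjusted p = 0.0325). The part of these genes in the Il1rl1 result was not tested. Between APTKA and APTK medium 2 members were higher (Il1rl1 and Il1a) and 5 lower (Il1r1, Il33, Il18, Il1rap and Irak1). In that comparison 62.9% of all genes passed, 31.1% higher and 31.8% lower (median -0.18 over the members, -0.03 over all genes). Between the irradiated media the same 2 were higher and 4 lower, without Il1rap, where 61.3% of genes passed, 30.1% higher and 31.2% lower (median -0.19 over the members, -0.03 over all genes).

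The genes whose log2 CPM ran most like Il1rl1 over the 20 libraries were Ifrd1 (Pearson r = 0.994), Mybbp1a and Pvr (0.991 each), among all genes tested. For Il33 they were Adh7 (0.949), Sema5a (0.947) and Wnt5a (0.945), and for Il1r1 Slc44a1 (0.977), Ank and Dkk3 (0.974 each). These points share groups and medium, so the coefficients describe the pattern over 5 groups more than single libraries. Il1rl1 and Il1r1 ran against each other over the same libraries (r = -0.94).

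RefSeq places Il1rl1 at more than 1 start, and in rodents the upstream one is known from mast cells and other blood cells and the downstream one from fibroblasts. The 250 bases before each, at chr1:40429320-40429569 and chr1:40439379-40439628 of GRCm38.p6 (plus strand), are shown because Il1rl1 differed most of the 10 between the media, and because the count tables hold no value per start. Neither window matched a searched motif.
Il1rl1 first start: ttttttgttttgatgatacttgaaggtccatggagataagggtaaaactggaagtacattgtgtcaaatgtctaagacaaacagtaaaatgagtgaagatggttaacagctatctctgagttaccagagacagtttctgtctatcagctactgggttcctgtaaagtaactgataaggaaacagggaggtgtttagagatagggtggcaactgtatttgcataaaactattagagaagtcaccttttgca
Il1rl1 second start: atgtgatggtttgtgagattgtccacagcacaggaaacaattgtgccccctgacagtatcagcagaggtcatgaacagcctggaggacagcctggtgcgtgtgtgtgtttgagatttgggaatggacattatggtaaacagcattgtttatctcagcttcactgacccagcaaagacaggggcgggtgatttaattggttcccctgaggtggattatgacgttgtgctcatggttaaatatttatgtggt

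Il1r1, the signalling receptor for IL-1 alpha and IL-1 beta, took the opposite course. It stood at 32.7, 32.0, 31.3 and 25.5 CPM with irradiated APTKA medium and at 32.0, 33.0, 32.2 and 32.8 CPM with APTKA medium. It stood at 60.3, 72.5, 69.4 and 57.1 CPM with irradiated APTK medium, at 49.7, 57.8, 65.9 and 57.3 CPM with APTK medium and at 41.7, 42.8, 39.0 and 41.9 CPM in untreated libraries. All APTKA libraries were below and all APTK libraries above the untreated ones. The log2 fold change against untreated cells was -0.35 ± 0.0828 (SE, edgeR adjusted p = 6.94e-04) with APTKA medium and 0.48 ± 0.0811 (adjusted p = 2.48e-05) with APTK medium, and between the media it was -0.83 ± 0.0820 (adjusted p = 1.65e-09). With irradiation the last difference was -1.09 ± 0.0824 (adjusted p = 1.01e-11).

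The window of the second RefSeq start of Il1r1, at chr1:40266336-40266585 of GRCm38.p6 (plus strand), is shown as the only 1 of the members' windows with a match to the kappaB consensus, in capitals at bases -232 to -223.
Il1r1 second start: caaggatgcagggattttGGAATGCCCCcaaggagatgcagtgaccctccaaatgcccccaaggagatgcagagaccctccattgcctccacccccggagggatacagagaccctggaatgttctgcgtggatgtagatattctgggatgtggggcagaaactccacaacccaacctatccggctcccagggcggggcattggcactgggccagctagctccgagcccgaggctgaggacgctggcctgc
Of 32851 promoter windows of the same length in the table, 4.51% hold a kappaB consensus match, 7.81% an AP-1 match, 8.30% a GAS match (TTCNNNGAA) and 3.44% an ISRE match, each searched on both strands of 250 bases before to 50 after the start. The 10 members had 15 windows, of which 4 held a match. The others were in Myd88, where GAS (-46 to -38) and ISRE (-40 to -31) overlap, and in Il1rap (ISRE, 20 to 29 bases after the start). A match is a run of letters and not a shown binding site.

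Il1rap, the accessory chain shared by both receptors, lies on the plus strand of chromosome 16 (26581704 to 26730117). Its mean was 41.4 ± 2.12 CPM in irradiated APTKA, 36.8 ± 1.17 in APTKA, 44.3 ± 5.99 in irradiated APTK, 43.7 ± 1.26 in APTK and 53.9 ± 3.24 CPM in untreated libraries (SD, n = 4 each). It fell with every medium, by a log2 fold change between -0.28 ± 0.0690 (irradiated APTK, SE, edgeR adjusted p = 0.00141) and -0.55 ± 0.0690 (APTKA, adjusted p = 9.27e-08). Libraries of irradiated APTK medium overlapped the untreated ones, and those of the other media did not. APTKA libraries lay below those of APTK medium (-0.25 ± 0.0694, adjusted p = 0.00314).

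Levels of different genes were compared as CPM per kilobase of merged exons. Within a library the Il1rl1 level over the Il1r1 level was 1.39 to 1.70 in irradiated APTKA, 1.18 to 1.41 in APTKA, 0.0322 to 0.0424 in irradiated APTK, 0.0313 to 0.0464 in APTK and 0.193 to 0.249 in untreated libraries. Il1rl1 thus exceeded Il1r1 per length in all 8 APTKA libraries and in no other library. Over Il1rap, the per-length level of Il1rl1 was 1.91 to 2.12 with APTKA medium and 0.252 to 0.339 in untreated libraries. In untreated cells the order per kilobase was Irak1 (15.1 ± 0.297 CPM), Irak2 (9.34 ± 0.551), Myd88 (6.58 ± 0.353), Il1r1 (6.50 ± 0.259), Il1rap (4.74 ± 0.285), Il18 (1.57 ± 0.224), Il1rl1 (1.43 ± 0.122), Irak3 (0.832 ± 0.135), Il33 (0.626 ± 0.102) and Il1a (0.0211 ± 0.0309). Myd88 and Il1r1, and Il18 and Il1rl1, differed there by less than the larger SD of each pair.

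**Figure D2:**
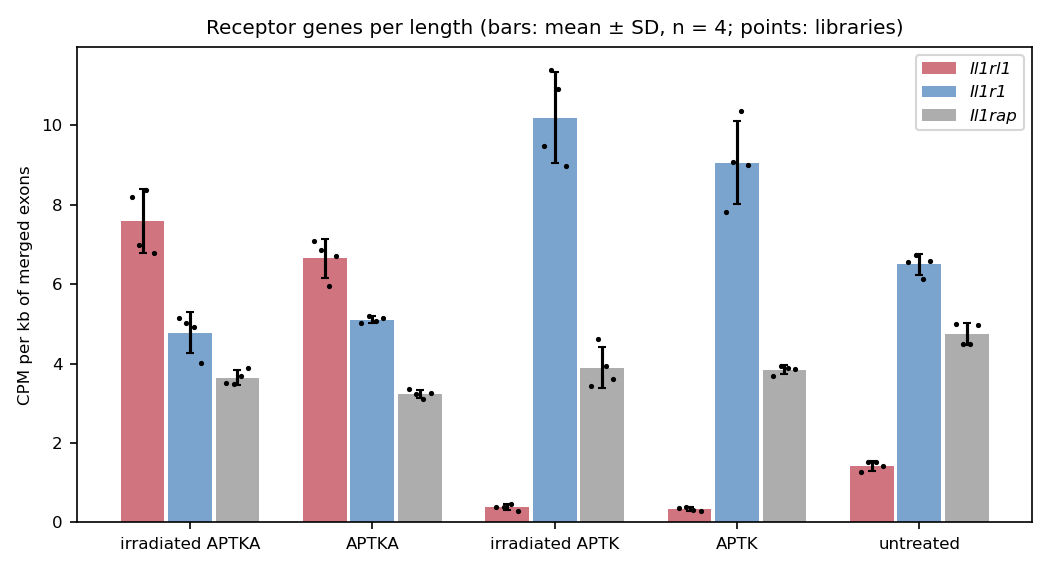
CPM per kilobase of merged exons (vertical axis) of the receptor genes Il1rl1, Il1r1 and Il1rap by group (bars are means, whiskers ± SD, n = 4, points are libraries). Il1rl1 is the highest of the 3 with both APTKA media (7.58 ± 0.806 with irradiated APTKA medium and 6.65 ± 0.488 with APTKA medium) and the lowest elsewhere.

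Among the proteins below the receptors, Myd88 is the adaptor, Irak1 and Irak2 pass the signal to Traf6, and Irak3 is known as a brake on it. Irak1, on the X chromosome (74013914 to 74023918, minus strand), stood at 57.2 ± 1.51 CPM with irradiated APTKA medium and 56.3 ± 2.21 with APTKA medium. It stood at 73.0 ± 1.61 with irradiated APTK medium, 71.6 ± 1.71 with APTK medium and 71.0 ± 1.40 CPM in untreated cells (SD, n = 4 each). The 8 APTKA libraries lay below all 12 others, and the log2 fold change of APTKA medium over untreated cells was -0.33 ± 0.0451 (SE, edgeR adjusted p = 3.04e-07), against 0.01 ± 0.0448 for APTK medium over untreated cells (adjusted p = 0.847). Myd88, on the minus strand of chromosome 9 (119335934 to 119341411), averaged 15.4, 14.9, 13.9, 16.2 and 17.0 CPM in irradiated APTKA, APTKA, irradiated APTK, APTK and untreated libraries. It fell with irradiated APTK medium (-0.29 ± 0.0808, adjusted p = 0.00464), and with APTKA medium it was at -0.18 ± 0.0791, an adjusted p of 0.05002 that falls on the other side of 0.05 with upper quartile scaling (-0.21, adjusted p = 0.0220) or with DESeq2 size factors (-0.19, adjusted p = 0.0406). It also does so without untreated replicate 1, APTKA replicate 1, APTK replicate 1 or irradiated APTK replicate 3 or 4 (adjusted p = 0.0389, 0.0130, 0.0467, 0.0485 and 0.0486). Of its exon bases 11.3% lie opposite Acaa1a, and without a stated strand setting reads there cannot be assigned. Acaa1a was lower with APTKA medium than in untreated cells (-0.24 ± 0.0697, adjusted p = 0.00467). With irradiated APTK medium it did not pass (-0.06 ± 0.0698, adjusted p = 0.519). The part of Acaa1a reads in the Myd88 result was not tested.

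Irak2, on the plus strand of chromosome 6 (113638467 to 113695026), ranged from 33.8 to 44.0 CPM over all 20 libraries and passed in no comparison. Its log2 fold change was -0.15 ± 0.0704 with APTKA medium over untreated cells (SE, edgeR adjusted p = 0.0741, 95% interval -0.30 to 0.0039). The call appeared with upper quartile scaling (-0.18, adjusted p = 0.0330) or without untreated replicate 4, APTKA replicate 3 or irradiated APTKA replicate 2 (adjusted p = 0.0357, 0.0325 and 0.0422). Irak3, on the minus strand of chromosome 10 (120141648 to 120202130), averaged 3.51 ± 0.779 CPM in irradiated APTKA, 3.89 ± 0.452 in APTKA, 4.26 ± 0.894 in irradiated APTK, 4.14 ± 1.04 in APTK and 3.06 ± 0.494 CPM in untreated libraries (SD, n = 4 each). It passed with APTK medium at 0.45 ± 0.183 (adjusted p = 0.0494) and with irradiated APTK medium at 0.48 ± 0.185 (adjusted p = 0.0364), although libraries overlapped in both. The first call ended without any 1 of 11 of the 20 libraries (untreated replicates 3 and 4, APTKA replicates 1, 2, 3 and 4, APTK replicates 1 and 3 and irradiated APTKA replicates 1, 2 and 3), with the largest move without APTK replicate 3 (0.25, adjusted p = 0.284). The second ended without untreated replicate 3 or 4 or irradiated APTK replicate 2 or 4 (adjusted p = 0.109, 0.0968, 0.0824 and 0.162). Of the Irak3 exon bases 5.22% lie opposite Tmbim4, and reads there cannot be assigned either.

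**Figure D3:**
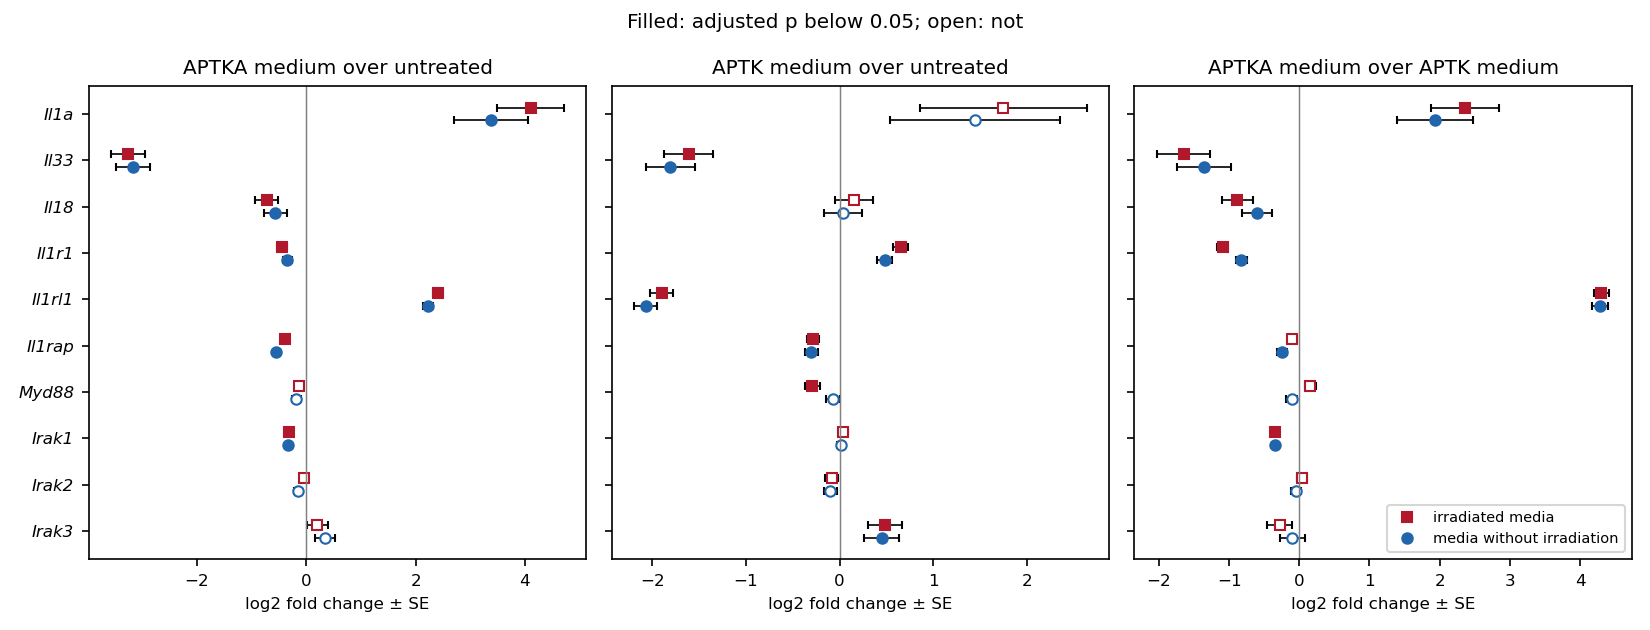
Log2 fold change ± SE (horizontal axis) of each member (vertical axis) for APTKA medium over untreated cells, APTK medium over untreated cells and APTKA over APTK medium, with squares for irradiated and circles for plain media and filled symbols for an adjusted p below 0.05. Il1rl1 lies at 2.22 in the first panel, -2.07 in the second and 4.29 in the third for the plain media.

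Irradiation was examined within each medium. Of the 10 members none passed in irradiated over plain APTKA medium (where 0.729% of genes passed, 0.452% higher and 0.277% lower) or in irradiated over plain APTK medium (1.38%, 0.547% higher and 0.837% lower), by edgeR or by DESeq2, and 2 in each had an unadjusted p below 0.05. In APTKA medium these were Il1rl1 (0.19 ± 0.0824 on the log2 scale, 95% interval 0.01 to 0.36, adjusted p = 0.336 by edgeR) and Il1rap (0.17 ± 0.0693, 0.02 to 0.31, adjusted p = 0.298). In APTK medium they were Il1r1 (0.17 ± 0.0801, -0.0017 to 0.34, adjusted p = 0.317) and Myd88 (-0.22 ± 0.0809, -0.39 to -0.05, adjusted p = 0.174). Il1a, with 86 counts in irradiated and 49 in plain APTKA libraries, stood at 0.72 ± 0.366 (-0.06 to 1.501, adjusted p = 0.433). The difference between the 2 irradiation effects also passed for no member (0.182% of genes, 0.121% higher and 0.0607% lower), with 2 at an unadjusted p below 0.05 and none by DESeq2. Those 2 were Il1r1 (-0.27 ± 0.116, adjusted p = 0.485) and Myd88 (0.26 ± 0.113, adjusted p = 0.469).

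Of 15 other ligands and receptors of the family 4 had enough counts to be tested. Among the rest, Il1b had 3 counts with APTKA medium (at most 0.0784 CPM in a library) and 0 in the other 16 libraries, and Il1rn, the receptor antagonist, reached at most 0.115 CPM. Of the 4 tested genes 2 rose with APTKA medium and 2 fell (median 0.49, against 0.0031 over all genes, of which 61.4% passed). Il18rap, an accessory chain for IL-18, rose by 2.09 ± 0.189 (SE, edgeR adjusted p = 2.15e-10), with 3.70 ± 0.511 CPM with APTKA medium and 0.858 ± 0.289 CPM in untreated cells, while its partner chain Il18r1 stayed at or below 0.0435 CPM. Il1r2, the decoy receptor for IL-1, rose by 1.61 ± 0.453 (adjusted p = 0.00316), on 59 counts with APTKA medium and 18 in untreated libraries. Il18bp, which neutralises IL-18, fell (-0.91 ± 0.231), as did Il1rl2, the receptor for IL-36 (-0.63 ± 0.0629). With APTK medium none rose by edgeR and 1 fell (Il1rl2, -0.19 ± 0.0620), a call lost with upper quartile scaling (adjusted p = 0.0514). The median there was 0.46, against 0.0028 over all genes, of which 43.4% passed, 20.9% higher and 22.5% lower. In that comparison 3 of the 4 had an unadjusted p below 0.05, DESeq2 called 1 higher, and edgeR called 1 higher without untreated replicate 2, 3 or 4 or irradiated APTK replicate 4.

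Of 24 genes for signal steps after the receptor, 7 rose and 3 fell with APTKA medium (median log2 fold change 0.08, against 0.0031 over all genes, of which 61.4% passed), and 5 rose and 6 fell with APTK medium (median 0.05, against 0.0028 over all genes, of which 43.4% passed). The share called with APTKA medium was below that of all genes. Tab1, an activator of the kinase TAK1, rose by 0.96 ± 0.0604 (SE) with APTKA medium and Usp13, a deubiquitinase, by 0.63 ± 0.0711. Traf3, a regulator that restrains NF-kappaB signalling, and Tollip, an IRAK-binding inhibitor, fell with APTKA medium (-0.43 ± 0.0648 and -0.40 ± 0.0525). With APTK medium Traf3 (-0.51 ± 0.0650) and Cyld (-0.47 ± 0.0837), a deubiquitinase that limits NF-kappaB, fell. Cyld was higher with APTKA than with APTK medium (0.83 ± 0.0830, edgeR adjusted p = 1.89e-09). The 5 rises with APTK medium became 3 without any 1 of untreated replicates 2, 3 and 4 or APTK replicates 2, 3 and 4.

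Of 17 inflammasome and ligand-processing genes 10 were tested. With APTKA medium 3 rose and none fell, a share below the 61.4% of all genes that passed (median 0.07, against 0.0031 over all genes), among them the protease genes Casp4 (1.03 ± 0.116, SE) and Casp8 (0.33 ± 0.0719). In that comparison 3 of the 10 had an unadjusted p below 0.05, and DESeq2 called 4 higher and 0 lower. Casp1, the protease that matures IL-1 beta and IL-18, was below the filter, at most 0.195 CPM, as was the sensor gene Nlrp3, also at most 0.195 CPM. With APTK medium 4 rose and 2 fell (median 0.26, against 0.0028 over all genes, of which 43.4% passed), with the pore-forming Gsdmd among those that rose (0.62 ± 0.0526, edgeR adjusted p = 3.40e-10). The 2 falls became 1 without untreated replicate 4 or APTK replicate 2, 3 or 4.

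Toll-like receptors share Myd88 with the IL-1 receptors, and 10 of 15 such genes and adaptors were tested. With APTKA medium 5 rose and 2 fell, a share near the 61.4% of all genes that passed (median 0.31, against 0.0031 over all genes). Tlr5, the flagellin receptor, rose by 1.88 ± 0.154 (SE), the co-receptor Cd14 by 1.78 ± 0.147 and Tlr2 by 1.31 ± 0.146, while Tlr3, which senses double-stranded RNA, fell (-0.82 ± 0.191, edgeR adjusted p = 4.85e-04). With APTK medium 3 rose and 2 fell (median 0.17, against 0.0028 over all genes, of which 43.4% passed), with Tlr5 at 1.09 ± 0.164 and Tlr4, the endotoxin receptor, at -0.72 ± 0.0726. Without untreated replicate 3 the rises became 1 and the falls 1, and without APTK replicate 3 they became 2 and 1. The falls also became 1 without untreated replicate 1 or APTK replicate 4.

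Genes known to be induced by IL-1 in fibroblasts, which other stimuli that act through NF-kappaB also raise, had the highest median of the lists with APTKA medium. Of 31 such genes 29 were tested, and with APTKA medium 27 rose and 1 fell (median log2 fold change 2.36, against 0.0031 over all genes, of which 31.5% were higher and 29.9% lower). The neutrophil chemokine Cxcl2 had 1293 counts over the 4 APTKA libraries and 0 in untreated ones, at least 406-fold higher when the untreated group is set to 3 counts in all. The colony-stimulating factor Csf2 had 63 counts and 0, at least 19.8-fold higher. Saa3, an acute-phase gene, had 6797 counts and 9 (ratio 711.5, 95% counting interval 374.6 to 1557), and the metalloreductase gene Steap4 169 and 4 (ratio 39.8, 15.3 to 147.8). The gene that fell was Vcam1, an adhesion molecule (182.1 ± 8.33 CPM with APTKA medium and 249.2 ± 7.52 CPM in untreated cells, SD, n = 4 each), and Has1 did not pass (-0.19).

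With APTK medium the same list split, 9 higher and 8 lower with 12 not passing. Its median was 0.02, or 0.04 without Csf2, which had 0 counts in both groups. Over all genes the median was 0.0028, with 20.9% higher and 22.5% lower. Cxcl2 rose, on 10 counts with APTK medium and 0 in untreated libraries, at least 3.25-fold higher (edgeR adjusted p = 0.0204). Its libraries overlapped, and the call was lost without APTK replicate 3 (adjusted p = 0.0653). Cxcl1 (1.25), Ptges (1.28) and Cxcl5 (1.19) rose, and Mmp10 (-1.46 ± 0.504), Mmp13 (-1.33) and Il6 (-0.82) fell. The Mmp10 call was lost with no filter (adjusted p = 0.0590) and without untreated replicate 4 or APTK replicate 1, 3 or 4 (adjusted p = 0.0623, 0.0656, 0.0563 and 0.0616). Nfkbia and Ccl2, which rose by 3.51 and 3.18 with APTKA medium, stood at 0.08 and 0.09 with APTK medium. Between APTKA and APTK medium 27 were higher and 2 lower (median 2.69, against -0.03 over all genes). There 62.9% of all genes passed, 31.1% higher and 31.8% lower. Between the irradiated media 26 were higher and 1 lower (median 2.29, against -0.03), where 61.3% of all genes passed, 30.1% higher and 31.2% lower. The 26 and 1 became 27 and 2 without irradiated APTKA replicate 2 and 28 and 2 without irradiated APTK replicate 3. Irradiation added to APTKA medium changed 0.729% of all genes by edgeR (0.452% higher and 0.277% lower). Of the 29 genes it changed none by edgeR (9 had an unadjusted p below 0.05, and DESeq2 called 2 lower). Without untreated replicate 1 or 4, APTKA replicate 1 or irradiated APTK replicate 3 or 4 it lowered 1, and without irradiated APTK replicate 2 it lowered 3. Added to APTK medium it raised 3 (Mmp10, Mmp13 and Ptgs2, by 2.11, 1.69 and 0.33) and lowered Cxcl5 (-0.88). In that comparison 1.38% of all genes passed, 0.547% higher and 0.837% lower. Those 3 rises became 0 without APTK replicate 3 or 4 or irradiated APTK replicate 1 or 3, 1 without irradiated APTK replicate 2 and 7 without irradiated APTK replicate 4, where the falls became 2. The Mmp10 call was lost without any 1 of 18 of the 20 libraries (all but APTKA replicate 1 and irradiated APTK replicate 4), with adjusted p between 0.05004 and 0.127, and with the replicate block (2.10, adjusted p = 0.0699). The Mmp13 call was lost without APTK replicate 3 or 4 or irradiated APTK replicate 1 or 3 (adjusted p = 0.0697, 0.0629, 0.0673 and 0.0954). Both were lost with only the groups compared (adjusted p = 0.287 and 0.201).

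**Figure D4:**
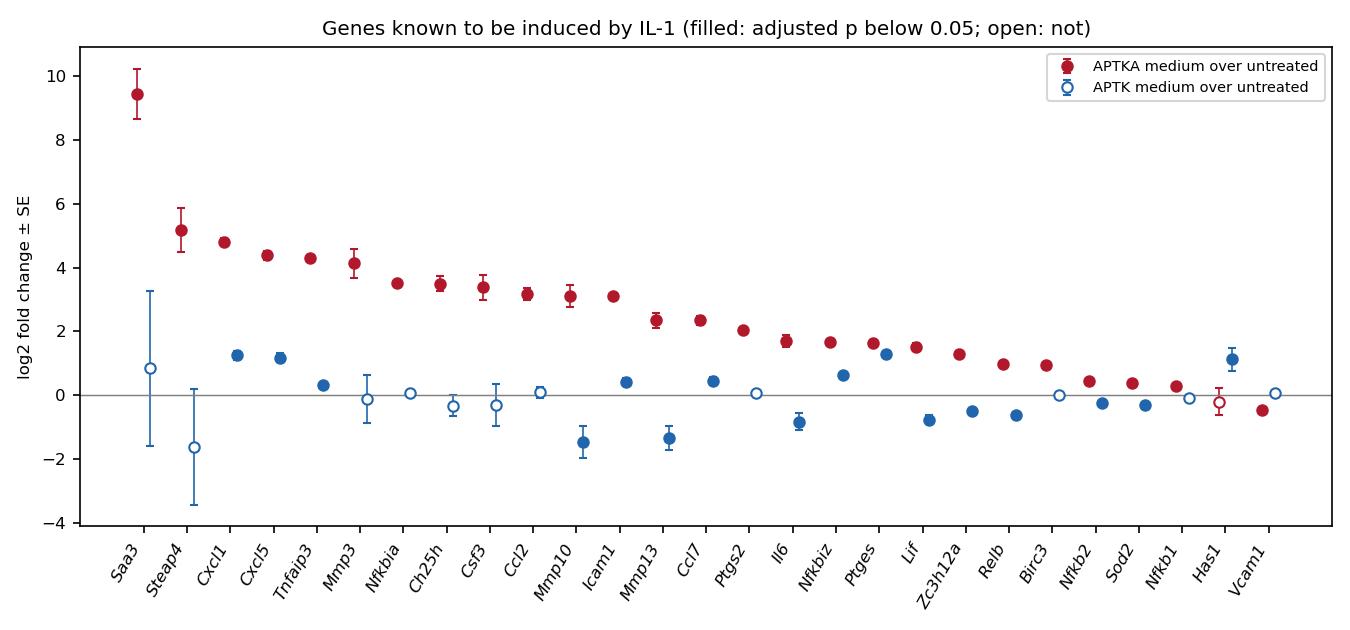
Log2 fold change ± SE (vertical axis) over untreated cells for 27 tested genes known to be induced by IL-1 (horizontal axis, ordered by the value with APTKA medium), with filled symbols for an adjusted p below 0.05. Cxcl2 and Csf2, at 0 in all untreated libraries, are not drawn. Most APTKA values (red) lie above 0, while APTK values (blue) lie on both sides.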

How the data were processed

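RNA with poly(A) was sequenced from 20 libraries. The authors deposited a table of raw counts for each library. The submitters' processing notes name the build mm10, featureCounts 1.5.0-p1, STAR 2.5.2a and bcl2fastq 2.20.0.422. Whether strand was used, how multiply matching reads were handled and which annotation release was counted is not given in the sources used here. Of 47729 gene identifiers 47224 matched a symbol and 505 did not. Coordinates and exon lengths came from GENCODE, promoters from RefSeq (GRCm38.p6, 32851 windows, all 10 members matched).

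Counts were fitted in R 4.3.3 with edgeR 4.0.16 (TMM, expression filter by group, robust quasi-likelihood fit of 5 group means over all 20 libraries, 15 residual degrees of freedom, Benjamini-Hochberg adjustment over 14820 genes, threshold 0.05). CPM used TMM-scaled totals, and likeness log2 CPM with a prior count of 2. Depth was 17.3 to 31.6 M counts per library. Counting intervals are exact at 95%, and the floor for a group at 0 was 3 counts over the group. Both cover counting error only. Every pair of libraries within a group differed by more than counting error, with a chi-square of 4.45 to 79.9 for each degree of freedom. It was largest in irradiated APTK (15.6 to 79.9) and untreated libraries (8.95 to 37.6). In irradiated APTKA, APTKA and APTK libraries it was 4.45 to 12.3, 5.24 to 13.3 and 5.55 to 11.9. The test was checked on simulated counts.

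Alternatives were upper quartile scaling, DESeq2 size factors, DESeq2 1.42.0, no filter, only the groups compared, a replicate block and each library left out. The members and lists were chosen with earlier results of these data known. Named beside the 10 members were up to 4 genes of each list with the largest passing changes for APTKA medium over untreated cells and up to 2 elsewhere. For genes most like a member the 3 with the highest Pearson r were taken. Vcam1, Has1, Nfkbia, Ccl2, Casp1, Nlrp3, Il1b, Il1rn, Il18r1, Sigirr, Il1rapl1, Cxcl1, Cxcl5, Ptges, Il6 and Ptgs2, and Mmp13 for APTK medium over untreated cells, were named after their values were seen. Values of 1 gene of the inflammasome list are not reported here.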

Additional observations from a re-analysis of the deposited data

Results flagged for a closer look

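In 2 of 50 sets of 4 libraries (each member in each group) a single library lay far from its group, where chance gives about 1 in 20 sets. APTKA replicate 3 was high for both. Irak2 stood at 40.6 CPM there, against 35.7 to 36.5 CPM in the other APTKA libraries. Irak3 stood at 4.57 CPM, against 3.63 to 3.69 CPM in the other APTKA libraries.

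The effect of irradiation differed between the media for 2 genes of the wider lists. For Ikbkg, the regulatory subunit of the IKK complex, the irradiation effect in APTKA medium minus that in APTK medium was 0.34 ± 0.0648 on the log2 scale (SE, edgeR adjusted p = 0.0219), from 0.23 in APTKA medium and -0.11 in APTK medium. For Lif, a cytokine of the IL-6 family, the difference was -0.92 ± 0.187 (adjusted p = 0.0303), from -0.39 in APTKA medium and 0.53 in APTK medium. The Ikbkg call was lost when any 1 of 6 libraries was left out (APTKA replicates 2 and 4, APTK replicate 2, irradiated APTKA replicates 1 and 3 and irradiated APTK replicate 3). The Lif call was lost without any 1 of 12 (all 4 APTKA and all 4 APTK libraries, irradiated APTKA replicates 1 and 4 and irradiated APTK replicates 1 and 3).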

How the results depend on the processing

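No member reversed a call under any alternative run. Leaving out each of the 20 libraries in turn, the number of members called was 6 to 8 for APTKA medium over untreated cells, 4 to 5 for APTK medium, 7 to 7 for irradiated APTKA medium, 5 to 7 for irradiated APTK medium, 6 to 7 for APTKA over APTK medium, 6 to 6 between the irradiated media and 0 for both irradiation effects and their difference. The members whose calls changed were Il1a, Il18, Myd88, Irak2 and Irak3, without the libraries named beside their values. With upper quartile scaling Myd88 also passed for irradiated APTKA medium over untreated cells (-0.19) and for APTKA over APTK medium (-0.18), and Il1rap between the irradiated media (-0.17). Irak3 passed for APTKA medium over untreated cells with no filter (0.37) or only the groups compared (0.35). For APTK medium it did not pass with DESeq2 size factors (0.43) or DESeq2 (0.43), and for irradiated APTK medium not with only the groups compared (0.48). Same-numbered libraries did not deviate together (r -0.108 to 0.0959 over 40 pairs, 0 above 0.1), and the main fit did not pair them. A low r cannot exclude that they share a mouse or culture, which the labels do not state. The replicate block left 4 members called for APTK medium, without Irak3 (0.44), and changed no other member's call. Of the other genes named in the text, Mmp10 lost its call for irradiated over plain APTK medium under the block (2.10). Counts over all genes moved by over 1.5 times in the irradiation comparisons. In APTKA medium 67 higher and 41 lower became 220 and 96 with no filter, 287 and 225 with only the groups compared, and 201 and 94 with DESeq2. With upper quartile scaling they became 47 and 47, a smaller move. In APTK medium 81 and 124 became 197 and 295, 6 and 4, and 221 and 220 in the first 3 of these settings, and the difference of 18 and 9 became 158 and 51 with no filter and 73 and 38 with DESeq2. The causes were not tested. Il1a fell below the filter in some fits of only the groups compared, which then give it no value. Il1a and Il33 rest on few reads, which limits what depth can show for them.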
